A study of Mus musculus with 10 samples.

Results

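MC38 mouse colon carcinoma cells that carried the c30 form of syndecan-1 were compared with the same knockdown cells without it, across all genes of the deposited count table. The comparison rests on 4 of the 10 libraries of the series, chosen by their labels: 2 libraries of MC38 with Sdc1 knockdown, and 2 libraries of MC38 with Sdc1 knockdown that also received c30. All 10 libraries came from cells grown in serum-containing medium, and all received 10 ng/ml of the cytokine interferon gamma for 24 h. The other 6 were libraries labelled as MC38 knockdown cells with a form called ect (2) and B16 melanoma cells with the knockdown alone or with wild-type Sdc1 put back (2 libraries each). Every group therefore shares the knockdown and the cytokine, and neither cells lacking these nor an empty vector are analysed here. The labels call c30 a mutant and say nothing of what it changes, of the vector that drives it or of the number of clones. Whether a group's libraries were separate cultures is not stated, so the p-values below reflect only how these samples vary, which may be technical.

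Syndecan-1 is a single-pass membrane proteoglycan. Heparan sulphate chains on its extracellular part bind matrix proteins, growth factors and chemokines, and its short cytoplasmic tail binds adaptors with PDZ domains. The ectodomain can be shed by metalloproteases, and heparanase trims its chains. In epithelia it is a coreceptor for adhesion and growth factor signalling.

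Total counts in the 4 libraries ran from 11349447 to 13776177, so that 3 counts, taken as the limit that a count of 0 allows, equal 0.218 to 0.264 CPM (counts per 1000000 counts of a library). Levels below are CPM after scaling by trimmed means (TMM). The 2 libraries of a group differed beyond counting noise in every MC38 group, so none was counted as a repeat deposit. Of 19 intestinal epithelium markers, 4 reached 1 CPM in each of the 4 libraries, against 13 of 14 mesenchymal genes, so most defining markers of the labelled tissue's epithelium were under 1 CPM. Leukocyte markers summed to 10.2 to 11.01 CPM and endothelial markers to 7.26 to 8.37 CPM in the 4 libraries. Rows restricted to B16 (145) had at least 20 CPM, by total counts, in every B16 library. They were limited to 7 counts each in the MC38 libraries, except c30 replicate 2, where no limit was set. These rows held 289 counts in c30 replicate 2 and 138 to 185 in the other 5 MC38 libraries, and the limit itself favours such a difference. That is 0.107% of the B16 level against at most 0.0595%. That 0 of these rows were among the genes tested followed largely from the limit on their counts. Genes high in B16 that MC38 cells also express were not examined for this.

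Sdc1 (ENSMUSG00000020592.16) had the largest rise of any called gene with a mean of at least 5 CPM. It held 337 and 398 counts in the knockdown libraries and 1101 and 1143 in the c30 libraries, or 24.5 and 29.9 CPM in knockdown cells and 96.3 and 101 CPM in c30 cells. Both c30 libraries lay far above both knockdown libraries (edgeR log2 fold change 1.86, SE 0.087, adjusted p = 6.18e-31), a level 3.62-fold higher. A count per gene does not separate the cell's own Sdc1 transcript from that of the introduced form.

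Among the 15031 genes tested, 1165 passed the edgeR quasi-likelihood test at an adjusted p under 0.05, which is 7.75% of them. The higher genes numbered 496 (3.30% of those tested) and the lower genes 669 (4.45%). Calls were more frequent among abundant genes. Below a mean of 5 CPM 0.745% of 4297 genes rose and 0.931% fell. From 100 to 500 CPM 6.70% of 2208 rose and 10.1% fell, and from 500 CPM 14.3% of 251 rose and 14.7% fell. Lists below are set against all genes, not against genes of like level, so each count is to be read beside 3.30% higher and 4.45% lower. In 1164 of the 1165 the libraries of both groups did not overlap, but the same held for 7235 of all 15031 genes tested (48.1%), so groups that lie apart are common with 2 libraries each and statements of that kind below are descriptions only. Below, a value in parentheses followed by SE is a log2 fold change of c30 against knockdown with its standard error, unless another contrast is named. Most changes were small: 957 of the called genes (82.1%) differed by less than 1.5-fold, and at least 2-fold differences were seen in 25 higher and 35 lower genes. Over all genes tested the median log2 fold change was 0.00. The number of calls depended on each c30 library, falling to 464 (179 higher, 285 lower) without c30 replicate 1 and to 485 (164 higher, 321 lower) without c30 replicate 2. With knockdown replicate 2 left out 794 genes passed, of which 320 were higher. DESeq2 called 513 (194 higher, 319 lower). When all 10 libraries of both lines were fitted together 254 genes passed, and 25.2% of these were higher against 42.6% in the MC38 fit.

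**Figure D1:**
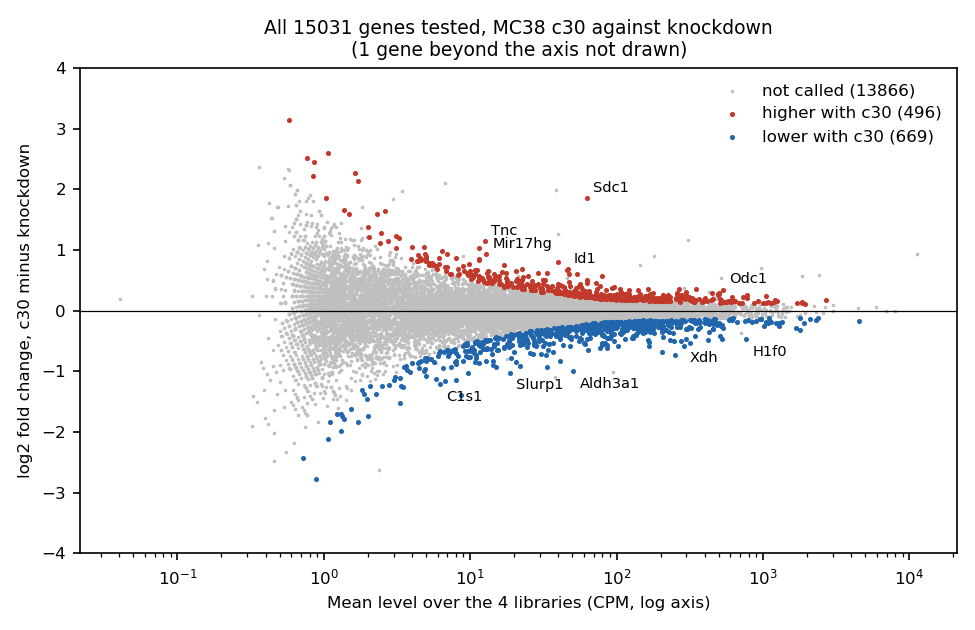
Log2 fold change of c30 against knockdown (vertical axis) against the mean CPM over the 4 libraries (horizontal log axis), 1 point per gene tested; red points are the 496 genes called higher and blue points the 669 called lower. Sdc1, at a log2 fold change of 1.86, is the highest red point above 5 CPM, and the called genes above 100 CPM lie close to 0.

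By annotated class, 416 of 11867 protein-coding genes tested rose and 639 fell, where 3.30% of all genes tested rose and 4.45% fell. Of 381 long intergenic noncoding RNAs 16 rose and 8 fell. Processed pseudogenes were called higher 30 times and lower 3 times out of 715, and 12 of 68 ribosomal protein pseudogenes rose while 0 fell. Reads from a parent gene and its pseudogene copies can be exchanged by the counting, so these pseudogene rows are uncertain. Of 555 loci without an Ensembl identifier, 9 rose and 9 fell.

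Apart from Sdc1, the largest rise among named genes with at least 5 CPM was that of Tnc, which encodes the anti-adhesive matrix protein tenascin-C. It was at 6.76 and 8.94 CPM in knockdown cells and 13.7 and 20.9 CPM in c30 cells. Its c30 libraries differed from each other but both lay above the knockdown (edgeR log2 fold change 1.14, SE 0.17, adjusted p = 1.34e-06). Enpp5, a nucleotide pyrophosphatase family gene, had a log2 fold change of 0.87 (edgeR adjusted p = 0.0164), and Tmem171 had one of 0.82 (edgeR adjusted p = 0.0191). Tigit, an immune receptor gene better known from lymphocytes, was at 16.6 and 15.3 CPM in knockdown cells and 25.9 and 24.1 CPM in c30 cells (edgeR log2 fold change 0.65, SE 0.12, adjusted p = 8.07e-05). Both c30 libraries lay above both knockdown libraries, and leukocyte markers as a list were low, with 7 of 20 at 0 counts in all 4 libraries. Plagl1, an imprinted zinc finger gene, had a log2 fold change of 0.79 (edgeR adjusted p = 0.0239). Hic2, a transcriptional repressor gene, had a log2 fold change of 0.77 (edgeR adjusted p = 0.0238), and Nr2f6, an orphan nuclear receptor gene, had one of 0.65 (edgeR adjusted p = 0.0134). Rap1gap, which encodes an inhibitor of the small GTPase Rap1, had a log2 fold change of 0.66 (edgeR adjusted p = 0.00133). Emb, a chaperone of monocarboxylate transporters, had a log2 fold change of 0.62 (edgeR adjusted p = 0.0166). Of these genes Tnc and Tigit passed in every alternative tried. Without c30 replicate 1, Enpp5, Tmem171, Hic2, Nr2f6 and Emb did not pass, and without c30 replicate 2, Enpp5, Tmem171, Plagl1, Nr2f6, Rap1gap and Emb did not. Enpp5, Plagl1, Hic2 and Nr2f6 failed without knockdown replicate 1, and Enpp5, Tmem171, Plagl1, Nr2f6 and Emb without knockdown replicate 2.

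**Figure D2:**
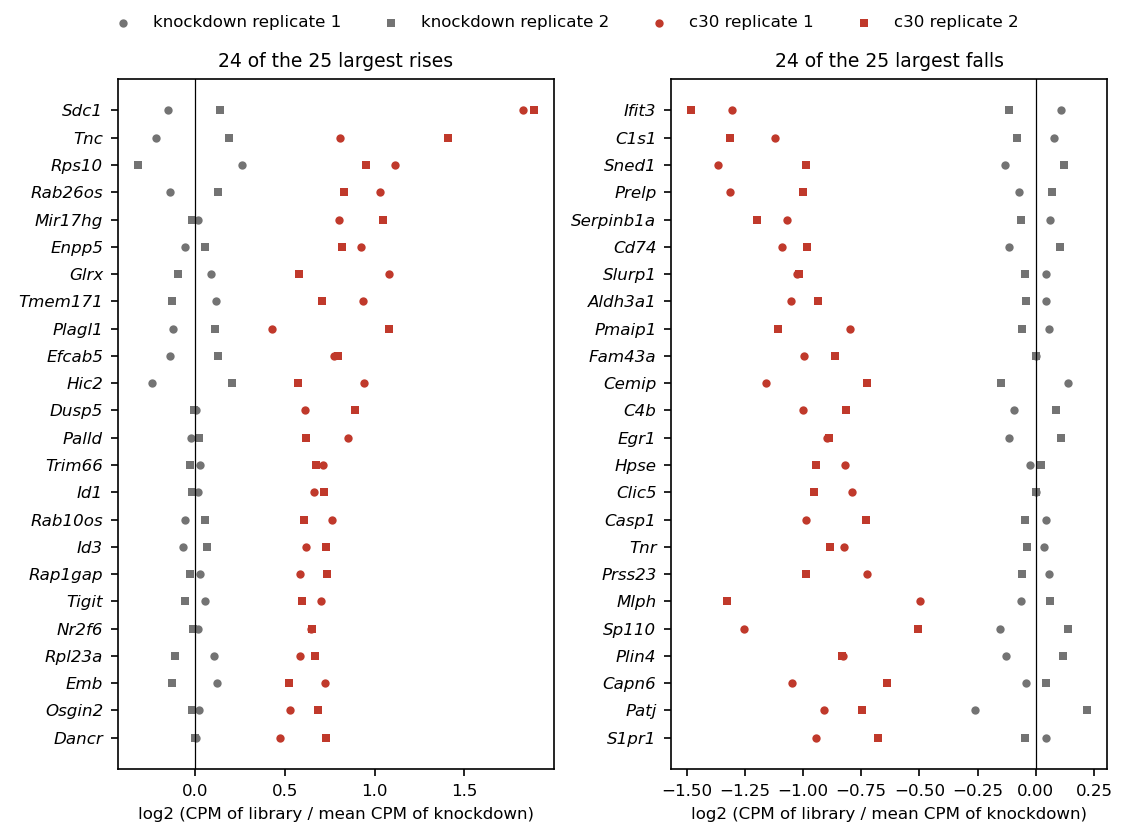
Log2 ratio of each library's CPM to the mean CPM of the knockdown group (horizontal axes) for 24 of the 25 largest rises and 24 of the 25 largest falls among named genes with at least 5 CPM; grey marks are the 2 knockdown libraries and red marks the 2 c30 libraries. Red and grey marks do not overlap in any gene, which the rule for choosing them required, and the gap between the 2 red marks is widest in Mlph, followed by Sp110, Plagl1 and Tnc.

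The 25 largest falls held genes of several kinds. Ifit3, Cd74, Sp110 and Casp1, which interferons induce, were also among the 25 and are named here for completeness (-1.39, -1.03, -0.83 and -0.85 on the log2 scale). Cemip, which encodes a hyaluronan-depolymerising protein, was at 21.7 and 17.8 CPM in knockdown cells and 8.84 and 11.97 CPM in c30 cells (edgeR log2 fold change -0.93, SE 0.15, adjusted p = 4.95e-06). Fam43a, a gene of little known function, was at 44.2 and 44.2 CPM in knockdown cells and 22.1 and 24.3 CPM in c30 cells (edgeR log2 fold change -0.93, SE 0.10, adjusted p = 3.12e-11). Each c30 library of both genes lay below each knockdown library. Prss23, a secreted serine protease gene, was at 27.5 and 25.5 CPM in knockdown cells and 16.01 and 13.4 CPM in c30 cells (edgeR log2 fold change -0.85, SE 0.13, adjusted p = 5.98e-07). Clic5, an intracellular chloride channel family gene, was at 14.8 and 14.8 CPM in knockdown cells and 8.57 and 7.65 CPM in c30 cells (edgeR log2 fold change -0.87, SE 0.17, adjusted p = 1.05e-04). The knockdown and c30 libraries did not overlap in either, and these 4 genes passed in every alternative tried. Capn6, a calpain-like gene without protease activity, had a log2 fold change of -0.83 (edgeR adjusted p = 0.00204), and Patj, a scaffold of tight junctions, had one of -0.82 (edgeR adjusted p = 0.00299). Mlph, a melanosome transport adaptor, had a log2 fold change of -0.85 (edgeR adjusted p = 0.0142), and S1pr1, the sphingosine phosphate receptor gene, had one of -0.80 (edgeR adjusted p = 0.0190). With c30 replicate 1 left out Capn6, Patj and S1pr1 did not pass, nor did Sp110 and Casp1, and without c30 replicate 2 Mlph and S1pr1 did not. S1pr1 also failed when either knockdown library was left out, and Patj and Mlph failed without knockdown replicate 2. Of 7 melanocyte markers tested, a list without Mlph, 4 had a fold change above 0 and 1, Gpnmb, fell (-0.31, SE 0.046). Dct stood at 2.44 CPM and Tyrp1 at 2.70 CPM in c30 replicate 2, against at most 0.352 and 0.617 CPM in the other 3 libraries, whereas Mlph was lowest in that library. These 3 markers are named after their values were seen, and their part in the result for Mlph was not tested.

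Among genes above 100 CPM the collagen genes Col3a1 (-0.74, SE 0.049) and Col1a2 (-0.69, SE 0.051) fell most, followed by genes of several kinds, of which some are given here and others with their lists. Xdh, which encodes xanthine dehydrogenase of purine breakdown, was at 337 and 352 CPM in knockdown cells and 223 and 239 CPM in c30 cells (edgeR log2 fold change -0.58, SE 0.048, adjusted p = 3.52e-16). Gsn, the actin-severing protein gelsolin, was at 192 and 206 CPM in knockdown cells and 136 and 131 CPM in c30 cells (edgeR log2 fold change -0.58, SE 0.054, adjusted p = 3.10e-14). H1f0, a linker histone linked to differentiation, was at 907 and 868 CPM in knockdown cells and 634 and 652 CPM in c30 cells (edgeR log2 fold change -0.46, SE 0.040, adjusted p = 2.02e-15). In all 3 the c30 libraries lay below the knockdown libraries with little spread within a group. Msln, which encodes the surface protein mesothelin, had a log2 fold change of -0.49 (edgeR adjusted p = 1.72e-11). On the rising side were Ecm1, Csf1 and Slc5a3, the myo-inositol transporter gene, which had a log2 fold change of 0.35 (edgeR adjusted p = 8.93e-07). Cdk12, a transcription elongation kinase gene, had a log2 fold change of 0.30 (edgeR adjusted p = 3.12e-04) and did not pass without c30 replicate 1. Fubp1, a single-strand DNA-binding regulator gene, had a log2 fold change of 0.28 (edgeR adjusted p = 1.28e-05), and Prmt7, an arginine methyltransferase gene, had one of 0.28 (edgeR adjusted p = 3.29e-04).

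**Figure D3:**
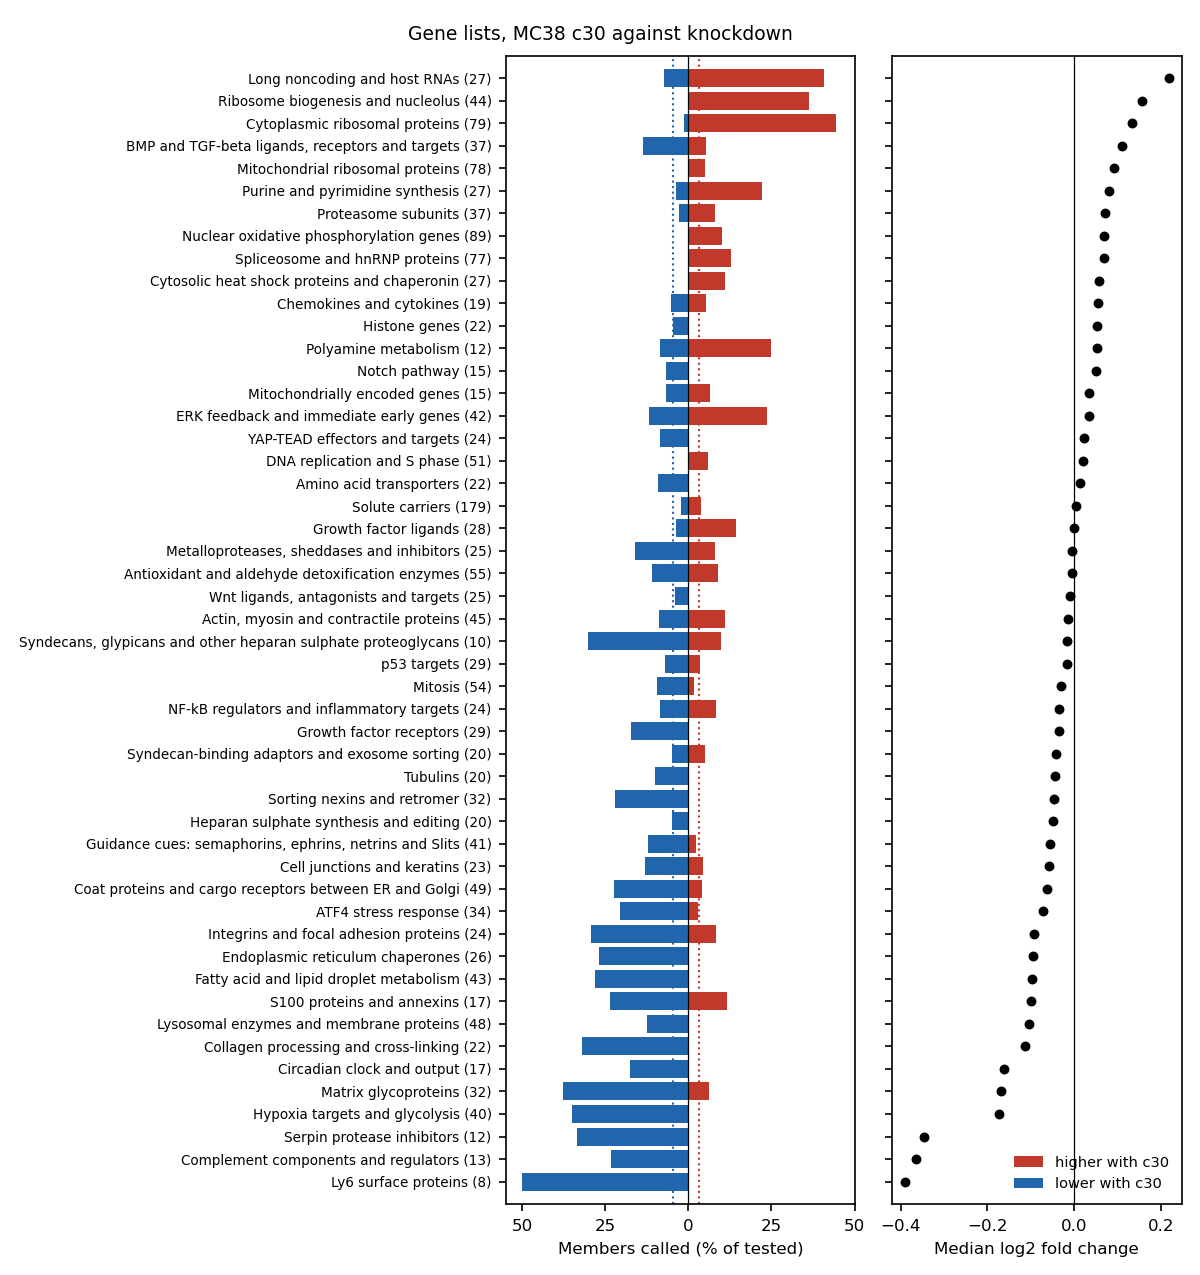
Gene lists with at least 8 members tested (number in brackets), ordered by the median log2 fold change of their members, which the right panel plots; bars give the percentage of members called higher (red, right) and lower (blue, left) with c30. Dotted lines mark the share over all genes, 3.30% higher and 4.45% lower, without regard to their level. The list of long noncoding and host RNAs and the ribosomal lists lie at the top, with 44.3% of ribosomal proteins called higher, and the Ly6 list at the bottom with 4 of its 8 genes called lower.

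Among syndecans, glypicans and other heparan sulphate proteoglycans, 1 of 10 tested rose, which was Sdc1, and 3 fell. Gpc1, which encodes the lipid-anchored proteoglycan glypican-1, was at 148 and 159 CPM in knockdown cells and 119.5 and 116 CPM in c30 cells (edgeR log2 fold change -0.38, SE 0.056, adjusted p = 4.07e-07). Tgfbr3, the TGF-beta coreceptor betaglycan, was at 35.6 and 36.5 CPM in knockdown cells and 26.7 and 28.3 CPM in c30 cells (edgeR log2 fold change -0.39, SE 0.10, adjusted p = 0.00762). In both, every c30 library lay below every knockdown library. Sdc2 had a log2 fold change of -0.24 (edgeR adjusted p = 0.0485), while Sdc3 (0.37, edgeR adjusted p = 0.339) and Sdc4 (-0.14, edgeR adjusted p = 0.189) did not pass. Hpse, which encodes heparanase, was the 1 gene called among 20 of heparan sulphate synthesis and editing (2 were without c30 replicate 2), at 10.2 and 10.5 CPM in knockdown cells and 5.86 and 5.37 CPM in c30 cells (edgeR log2 fold change -0.88, SE 0.20, adjusted p = 0.00131). Its 4 libraries did not overlap between groups. Of 20 adaptors of the syndecan tail and of exosome sorting, Src rose (0.25, edgeR adjusted p = 0.00231) and Cd81, a tetraspanin, fell (-0.33, edgeR adjusted p = 4.08e-05). Sdcbp, the gene of the PDZ adaptor syntenin that binds the syndecan tail, had a log2 fold change of -0.12 (edgeR adjusted p = 0.158). When c30 replicate 1 was left out Tgfbr3, Sdc2 and Src did not pass. Sdc2 also failed without c30 replicate 2, and without knockdown replicate 2 neither Tgfbr3 nor Sdc2 passed.

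Most called extracellular matrix glycoproteins were lower: 12 of 32 tested were lower and 2 higher, with a median log2 fold change of -0.17 against 0.00 over all genes. Tgfbi, a matrix protein induced by TGF-beta, was at 311 and 335 CPM in knockdown cells and 229 and 229.9 CPM in c30 cells (edgeR log2 fold change -0.49, SE 0.048, adjusted p = 4.20e-13). Sparc, a collagen-binding matricellular protein, was at 1382 and 1425 CPM in knockdown cells and 1177 and 1178 CPM in c30 cells (edgeR log2 fold change -0.25, SE 0.037, adjusted p = 3.52e-07). In both the c30 libraries were the lower ones, without overlap. Spp1, which encodes osteopontin, fell (-0.36, SE 0.054), as did the fibrillin gene Fbn1 (-0.29, SE 0.044), the proteoglycan versican gene Vcan (-0.27, SE 0.052) and Thbs1, the thrombospondin-1 gene (-0.56, SE 0.13). Sned1, an adhesion glycoprotein gene, had 8.43 and 10.1 CPM in the knockdown and 3.59 and 4.66 CPM with c30, and Tnr, tenascin-R, 14.3 and 13.6 CPM and 7.87 and 7.57 CPM. Prelp, a small leucine-rich proteoglycan of basement membranes outside this list, had 10.5 and 11.6 CPM and 4.46 and 5.54 CPM. Their log2 fold changes were -1.16, -0.85 and -1.15, each passing in every alternative tried. The 2 risers were Tnc and Ecm1, which encodes a secreted matrix-binding glycoprotein and was at 299 and 312 CPM in knockdown cells and 379 and 405 CPM in c30 cells (edgeR log2 fold change 0.36, SE 0.046, adjusted p = 6.67e-09). Among tenascin genes Tnc rose while Tnr and Tnxb (-0.22, SE 0.054) fell. Without c30 replicate 1, 8 of the 32 were lower, Thbs1 and Tnxb no longer among them, and with knockdown replicate 2 left out 9 were lower and 5 higher. The median ran from -0.29 without knockdown replicate 1 to -0.07 without knockdown replicate 2. Fibroblast and pericyte markers, 3 of 9 of which were called lower, summed to 762 and 817 CPM in the knockdown and 612 and 618 CPM with c30, and 5 of the 13 in that list (Lum, Fap, Thy1, Rgs5 and Dpt) were under 1 CPM in all 4 libraries. The part of these markers in the matrix result was not tested. In bulk RNA, fewer cells of a type and less RNA per cell cannot be told apart.

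Enzymes and chaperones that process collagen chains were lower for 7 of 22 and higher for 0 (median -0.11). Plod1, a lysyl hydroxylase, was at 176 and 183 CPM in knockdown cells and 144 and 143 CPM in c30 cells (edgeR log2 fold change -0.33, SE 0.055, adjusted p = 7.53e-06). Serpinh1, the collagen chaperone HSP47, was at 565 and 575 CPM in knockdown cells and 486 and 481 CPM in c30 cells (edgeR log2 fold change -0.24, SE 0.043, adjusted p = 2.92e-05). The cross-linking genes Loxl4 (-0.26, SE 0.052) and Tgm2 (-0.44, SE 0.11) and the hydroxylase genes Plod2 (-0.30, SE 0.077), P4ha1 (-0.26, SE 0.058) and P3h1 (-0.20, SE 0.069) were also called. P3h1 failed when either c30 library was left out, P4ha1 without c30 replicate 1, and Plod2 and Tgm2 without c30 replicate 2. Without c30 replicate 2, 4 of the 22 were lower, and 1 was with all 10 libraries in the fit. Among metalloproteases, sheddases and their inhibitors, 4 of 25 fell and 2 rose. The membrane-anchored protease gene Mmp14 was at 149 and 167 CPM in knockdown cells and 119 and 129 CPM in c30 cells (edgeR log2 fold change -0.35, SE 0.057, adjusted p = 4.95e-06), and both c30 libraries were lower. Adam19, a sheddase of neuregulins, was at 17.9 and 19.2 CPM in knockdown cells and 23.4 and 31.1 CPM in c30 cells (edgeR log2 fold change 0.55, SE 0.12, adjusted p = 9.74e-04) and did not pass without c30 replicate 2. Timp3 (-0.22, SE 0.051), Mmp2 (-0.24, SE 0.044) and Reck (-0.53, SE 0.17) fell, and Adamts9 (0.84, SE 0.25) rose, though Adamts9 failed when either c30 library was left out and Timp3 and Reck failed without c30 replicate 2. Without c30 replicate 2 the list held 2 lower and 0 higher genes, and without c30 replicate 1 or knockdown replicate 1 it held 1 higher gene.

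Integrin and focal adhesion genes were lower for 7 of 24 and higher for 2 (median -0.09). Itgb4, whose product binds laminin in hemidesmosomes and is a known partner of syndecan-1 in epithelia, was at 189 and 202 CPM in knockdown cells and 137 and 137 CPM in c30 cells (edgeR log2 fold change -0.51, SE 0.054, adjusted p = 4.87e-12). Itgb7 was at 329.7 and 357 CPM in knockdown cells and 245 and 253 CPM in c30 cells (edgeR log2 fold change -0.46, SE 0.048, adjusted p = 2.41e-12). Itga3, the alpha chain of another laminin receptor, moved the other way, at 429 and 473 CPM in knockdown cells and 531 and 554 CPM in c30 cells (edgeR log2 fold change 0.27, SE 0.045, adjusted p = 9.72e-06). The groups did not overlap in any of the 3, and Itga6, the partner chain of Itgb4, had a log2 fold change of -0.08 (edgeR adjusted p = 0.673). Zyx, a stretch-sensitive focal adhesion gene, rose (0.21, SE 0.063), and the tensin genes Tns1 (-0.29, SE 0.051) and Tns2 (-0.21, SE 0.061) fell, Zyx and Tns2 failing when either c30 library was left out. With c30 replicate 1 left out, or without c30 replicate 2, 3 of the 24 were lower and 1 higher, and without knockdown replicate 2, 4 were lower. Without knockdown replicate 1, 1 was higher. Of 23 junction and keratin genes 3 fell and 1 rose, with 1 lower and 0 higher without c30 replicate 1, 5 lower without knockdown replicate 1 and 0 higher without knockdown replicate 2. Cdh1, which encodes E-cadherin, was at 13.7 and 13.8 CPM in knockdown cells and 9.19 and 7.39 CPM in c30 cells (edgeR log2 fold change -0.73, SE 0.17, adjusted p = 0.00231), and Pcdh1, a protocadherin gene, at 45.9 and 46.03 CPM in knockdown cells and 31.8 and 37.6 CPM in c30 cells (edgeR log2 fold change -0.41, SE 0.095, adjusted p = 0.00200). Gja1, the gap junction protein connexin 43, was at 98.6 and 93.3 CPM in knockdown cells and 116 and 108 CPM in c30 cells (edgeR log2 fold change 0.23, SE 0.060, adjusted p = 0.00770). In all 3 the groups were apart, though Cdh1 did not pass without c30 replicate 2, and Pcdh1 and Gja1 did not without c30 replicate 1, nor Gja1 without knockdown replicate 2. Among transcription factors of the mesenchymal state, Snai2 fell (-0.60, SE 0.12) and Snai1 rose (0.59, SE 0.17), the latter failing without c30 replicate 1 or 2.

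Of 28 growth factor ligand genes 4 were higher and 1 lower, and of 29 receptor genes 5 were lower and 0 higher. The difference between these shares was not tested. Csf1, the macrophage growth factor, was at 400.4 and 405 CPM in knockdown cells and 498 and 489 CPM in c30 cells (edgeR log2 fold change 0.29, SE 0.043, adjusted p = 3.96e-07). Hbegf, a heparin-binding ligand of the EGF receptor, was at 32.03 and 29.7 CPM in knockdown cells and 40.2 and 42.1 CPM in c30 cells (edgeR log2 fold change 0.41, SE 0.10, adjusted p = 0.00195). Nrg1, an ERBB3 and ERBB4 ligand, had 48.2 and 58.3 CPM in the knockdown and 69.5 and 63.3 CPM with c30, and rose (log2 fold change 0.32). The c30 libraries were higher without overlap in these 3 ligands. Vegfa, the angiogenic factor and a hypoxia target, fell (-0.29, SE 0.059). Receptors that fell were the platelet-derived growth factor receptors Pdgfrb (edgeR log2 fold change -0.41, SE 0.066, adjusted p = 3.48e-06) and Pdgfra (edgeR log2 fold change -0.46, SE 0.094, adjusted p = 2.58e-04), the collagen receptor Ddr2 (-0.20, SE 0.043), Lrp1 (-0.25, SE 0.054) and Igf2r (-0.17, SE 0.048). When c30 replicate 1 was left out, 2 ligands rose (Csf1 and Hbegf) and 3 receptors fell (Pdgfra, Pdgfrb and Ddr2). Without c30 replicate 2, 2 ligands rose, and Hbegf and Vegfa did not pass, and without knockdown replicate 1, 2 ligands rose.

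Genes that feed back on the ERK kinase cascade or answer it early moved in both directions, with 10 of 42 higher and 5 lower. Their median was 0.03, and 0.02 to 0.08 with 1 c30 or knockdown library left out. Dual-specificity phosphatases that switch off ERK were among the risers. Dusp5, the nuclear one, was at 12.7 and 12.6 CPM in knockdown cells and 19.3 and 23.5 CPM in c30 cells (edgeR log2 fold change 0.76, SE 0.13, adjusted p = 2.60e-05). Dusp6, the cytoplasmic one, was at 60.5 and 61.95 CPM in knockdown cells and 89.5 and 78.6 CPM in c30 cells (edgeR log2 fold change 0.46, SE 0.069, adjusted p = 5.98e-07). Ier3, an early response gene, was at 65.4 and 61.95 CPM in knockdown cells and 95.1 and 94.9 CPM in c30 cells (edgeR log2 fold change 0.58, SE 0.063, adjusted p = 2.85e-11). In all 3 the groups were apart, and all 3 passed in every alternative. Etv5, an ETS factor induced by ERK, was at 65.01 and 68.6 CPM in knockdown cells and 90.98 and 85.1 CPM in c30 cells (edgeR log2 fold change 0.40, SE 0.065, adjusted p = 4.95e-06), and its relative Etv4 rose (0.20, edgeR adjusted p = 0.0265). Dusp2 (1.64, SE 0.36) and Phlda1 (0.94, SE 0.25) rose from low levels, at 1.09 to 4.49 CPM and 3.08 to 6.51 CPM over the 4 libraries. Fosl1 (0.43, SE 0.14), Srf (0.27, SE 0.086) and Ier5 (0.26, SE 0.078) were the remaining risers. Egr1, a zinc finger factor and classic immediate early gene, went the other way and was at 17.3 and 20.2 CPM in knockdown cells and 10.1 and 10.1 CPM in c30 cells (edgeR log2 fold change -0.89, SE 0.14, adjusted p = 3.26e-06). Klf4, a factor of epithelial differentiation, was at 376 and 369 CPM in knockdown cells and 257 and 260.3 CPM in c30 cells (edgeR log2 fold change -0.53, SE 0.047, adjusted p = 5.82e-15). Each c30 library of these factors lay below each knockdown library, and both genes passed in every alternative. Dusp4 (-0.24, SE 0.058), Dusp10 (-0.30, SE 0.078) and Klf6 (-0.15, SE 0.046) fell by less. The Sprouty genes Spry2 (-0.03, edgeR adjusted p = 0.938) and Spry4 (0.10, edgeR adjusted p = 0.798), Fos (0.46, edgeR adjusted p = 0.709) and Myc (0.15, edgeR adjusted p = 0.124) did not pass. Without c30 replicate 1 the list had 5 higher and 3 lower genes, and without c30 replicate 2 it had 4 and 3. Dusp5, Dusp6, Ier3, Etv5, Egr1 and Klf4 passed in both.

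**Figure D4:**
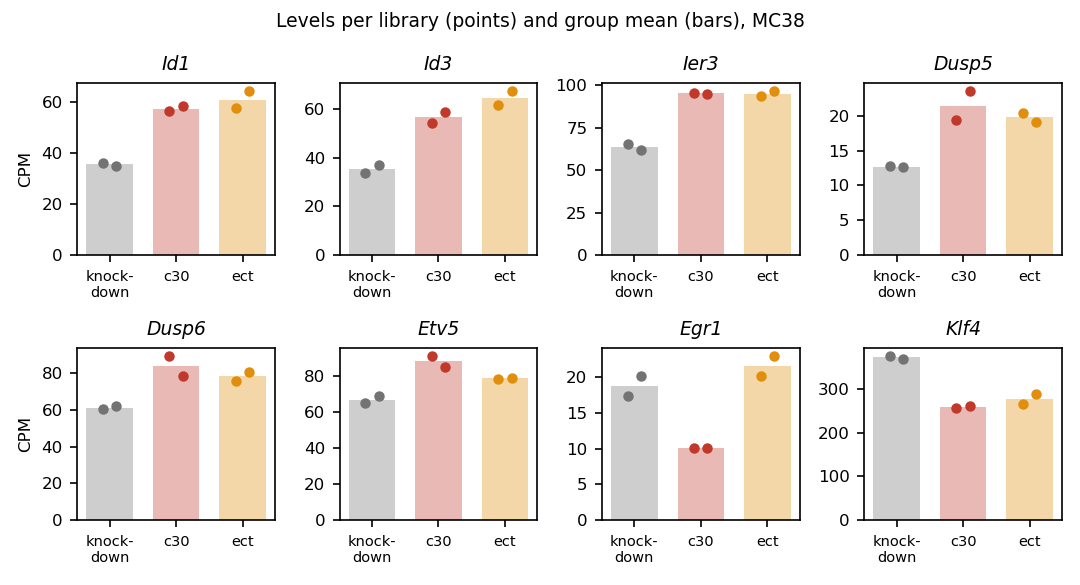
CPM per library (points) and group mean (bars, from 0) of 8 genes downstream of BMP and ERK signalling in the MC38 knockdown, c30 and ect groups, 2 libraries each. Id1, Id3, Ier3, Dusp5, Dusp6 and Etv5 were higher with c30 than in the knockdown and Klf4 lower, and the libraries labelled ect lay on the same side of the knockdown, whereas the c30 libraries of Egr1 lay below all others.

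Of the BMP and TGF-beta ligands, receptors and targets, 2 of 37 rose (5.41%) and 5 fell (13.5%), against 3.30% and 4.45% of all genes. The median was 0.11, but 0.03 and 0.06 without c30 replicates 1 and 2 and 0.05 without knockdown replicate 1, where 4 rose and 3 fell. The risers were the inhibitors of differentiation Id1 and Id3, direct targets of BMP-activated Smads that bind and block basic helix-loop-helix factors. Id1 was at 35.96 and 35.1 CPM in knockdown cells and 56.3 and 58.3 CPM in c30 cells (edgeR log2 fold change 0.69, SE 0.085, adjusted p = 1.75e-09). Id3 was at 33.7 and 37.1 CPM in knockdown cells and 54.3 and 58.8 CPM in c30 cells (edgeR log2 fold change 0.68, SE 0.085, adjusted p = 3.78e-09). The groups were well apart in both. Id2 had 12.5 and 11.6 CPM and 17.1 and 14.96 CPM and did not pass (0.41, edgeR adjusted p = 0.0645), and the inhibitory Smad genes Smad6 (0.60, edgeR adjusted p = 0.263) and Smad7 (0.17, edgeR adjusted p = 0.453) did not either. The receptor genes Tgfbr2 (-0.34, SE 0.063) and Bmpr2 (-0.19, SE 0.063), Smad2 (-0.24, SE 0.063), the BMP and activin antagonist gene Fstl1 (-0.16, SE 0.041) and the stress cytokine gene Gdf15 (-1.83, SE 0.58) fell. Gdf15 was near the floor, at 0.437 to 1.88 CPM. With c30 replicate 1 left out, 2 genes rose and 1 fell, and without c30 replicate 2, 3 rose and 2 fell. Id1, Id3 and Tgfbr2 passed in both.

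Calls among complement genes and serpins were all downward. Of 13 complement genes tested 3 fell and 0 rose (median -0.36). C4b, the precursor of a central complement component, was at 26.7 and 30.3 CPM in knockdown cells and 14.3 and 16.2 CPM in c30 cells (edgeR log2 fold change -0.91, SE 0.12, adjusted p = 2.81e-08). C1s1, a protease of the classical pathway, was at 9.23 and 8.26 CPM in knockdown cells and 4.02 and 3.52 CPM in c30 cells (edgeR log2 fold change -1.21, SE 0.22, adjusted p = 5.70e-05). The c30 libraries of both were lower without overlap, and C1rl fell from 1.95 to 2.18 CPM to 0.528 to 0.700 CPM. C1ra (-0.44, edgeR adjusted p = 0.145) and C3 (-1.46, edgeR adjusted p = 0.162) did not pass, and C1rl did not when any 1 of the 4 libraries was left out. Serpin protease inhibitors were lower for 4 of 12 and higher for 0 (median -0.35). Serpinb1a, an inhibitor of neutrophil proteases, was at 8.43 and 7.73 CPM in knockdown cells and 3.85 and 3.52 CPM in c30 cells (edgeR log2 fold change -1.13, SE 0.23, adjusted p = 3.12e-04). Serpinb8 was at 18.8 and 16.5 CPM in knockdown cells and 11.02 and 10.5 CPM in c30 cells (edgeR log2 fold change -0.72, SE 0.15, adjusted p = 3.91e-04), and Serpina3f had 29.9 and 25.8 CPM and 20.7 and 20.1 CPM (-0.45, edgeR adjusted p = 0.00507). In the first pair both c30 libraries were lower under every alternative tried, and Serpina3f did not pass without c30 replicate 2 or knockdown replicate 1. Serpinh1, described with the collagen enzymes, is the remaining member.

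Ly6 family proteins, small surface or secreted proteins of a 3-finger fold, were lower for 4 of the 8 tested (median -0.39). Ly6c1 was at 509 and 469.5 CPM in knockdown cells and 362 and 338 CPM in c30 cells (edgeR log2 fold change -0.48, SE 0.047, adjusted p = 9.62e-13). Slurp1, a secreted ligand of nicotinic receptors, was at 25.9 and 24.3 CPM in knockdown cells and 12.3 and 12.4 CPM in c30 cells (edgeR log2 fold change -1.02, SE 0.13, adjusted p = 7.25e-09). The groups were apart in both. Ly6e (-0.20, SE 0.044) and Lynx1 (-0.41, SE 0.10) also fell, and both failed without c30 replicate 1, where 2 of the 8 were called. Lynx1 also failed without knockdown replicate 2. Several Ly6 genes have close copies, so their counts are uncertain where reads could be split. Of 24 NF-kB regulators and inflammatory targets 2 rose and 2 fell, 8.33% each, against 3.30% and 4.45% of all genes tested. Vcam1, a leukocyte adhesion molecule, was at 74.7 and 69.6 CPM in knockdown cells and 48.1 and 49.97 CPM in c30 cells (edgeR log2 fold change -0.56, SE 0.076, adjusted p = 4.75e-08). Plaur, the urokinase receptor gene, was at 53.2 and 53.4 CPM in knockdown cells and 71.1 and 74.6 CPM in c30 cells (edgeR log2 fold change 0.45, SE 0.073, adjusted p = 2.95e-06). Vcam1 was thus lower and Plaur higher in both c30 libraries, and both passed in every alternative. Nfkbiz, an inducible nuclear regulator, fell (-0.38, edgeR adjusted p = 0.00340), failing without c30 replicate 2, and Traf1 rose (0.26, edgeR adjusted p = 0.0320), failing when either c30 library or knockdown replicate 1 was left out. Among 19 chemokines and cytokines Il15 (-0.42, edgeR adjusted p = 0.0280) fell and Ccl2 (0.18, edgeR adjusted p = 0.0493) rose, and both failed when any 1 of the 4 libraries was left out.

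Most calls in the translation apparatus were upward. Of 79 cytoplasmic ribosomal protein genes 35 rose and 1 fell, with a median of 0.13 and 69 of the 79 above 0. Rpl37a was at 243 and 228 CPM in knockdown cells and 303 and 298 CPM in c30 cells (edgeR log2 fold change 0.35, SE 0.048, adjusted p = 4.69e-08). Rplp1, a stalk protein, was at 724 and 688 CPM in knockdown cells and 846 and 837 CPM in c30 cells (edgeR log2 fold change 0.25, SE 0.040, adjusted p = 1.72e-06). Rps28 was at 109 and 106 CPM in knockdown cells and 136 and 135 CPM in c30 cells (edgeR log2 fold change 0.34, SE 0.058, adjusted p = 1.10e-05). Both c30 libraries were above both knockdown libraries in each, by smaller margins than in Id1 or Dusp5. Rps10 had a larger difference at a low level, 9.01 and 6.01 CPM in knockdown cells and 16.3 and 14.5 CPM in c30 cells (edgeR log2 fold change 1.03, SE 0.17, adjusted p = 7.49e-06). Rps27a, the 1 gene that fell (-0.49, SE 0.049), encodes a ubiquitin fusion and, like most of this family, has near-identical processed copies, so these counts are uncertain. The count of higher genes was 21 without c30 replicate 1, 18 without c30 replicate 2, 26 after correcting for length and GC content and 1 with all 10 libraries in the fit.

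Of 44 ribosome biogenesis and nucleolar genes, 16 rose and 0 fell, and 44 of 44 had a fold change above 0 (median 0.16). Nop56, a core protein of box C/D small nucleolar particles, was at 379 and 362 CPM in knockdown cells and 433 and 423 CPM in c30 cells (edgeR log2 fold change 0.21, SE 0.044, adjusted p = 5.44e-04). Ncl, nucleolin, was at 1762 and 1740.2 CPM in knockdown cells and 1956 and 1933 CPM in c30 cells (edgeR log2 fold change 0.15, SE 0.035, adjusted p = 0.00205). Polr1c, a subunit of RNA polymerases I and III, was at 101 and 97.5 CPM in knockdown cells and 119.6 and 118 CPM in c30 cells (edgeR log2 fold change 0.26, SE 0.058, adjusted p = 0.00140). In each the 2 groups were apart by a small margin, and Nop56 and Polr1c did not pass without c30 replicate 1, nor Ncl when either c30 library was left out. The count was 3 when either c30 library was left out, 9 without knockdown replicate 2, 10 with DESeq2 and 0 with all 10 libraries, with a median of 0.15 to 0.16 in each of these.

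A list of long noncoding transcripts, hosts of small nucleolar RNAs or microRNAs and others, was higher for 11 of 27 and lower for 2 (median 0.22). Zfas1 was at 44.3 and 41.3 CPM in knockdown cells and 66.9 and 62.8 CPM in c30 cells (edgeR log2 fold change 0.60, SE 0.080, adjusted p = 2.43e-08). Snhg20 was at 20.1 and 19.9 CPM in knockdown cells and 29.2 and 30.4 CPM in c30 cells (edgeR log2 fold change 0.58, SE 0.11, adjusted p = 1.37e-04). Gas5, a growth arrest transcript whose introns carry small nucleolar RNAs, was at 147 and 161 CPM in knockdown cells and 179 and 191 CPM in c30 cells (edgeR log2 fold change 0.26, SE 0.054, adjusted p = 4.03e-04). All 3 were higher in both c30 libraries. Snhg17 (0.31, SE 0.068), Snhg8 (0.44, SE 0.11), Snhg15 (0.36, SE 0.12) and Dancr (0.60, SE 0.20) rose too, Snhg18 (-0.62, SE 0.18) fell, and the abundant nuclear transcript Malat1 fell (-0.20, SE 0.036). Of these Snhg15 failed when either c30 library was left out, Snhg8 without c30 replicate 1, and Gas5, Snhg17, Snhg18 and Malat1 without c30 replicate 2. Rab26os and Rab10os, transcripts antisense to Rab genes, had log2 fold changes of 0.93 (edgeR adjusted p = 0.00285) and 0.69 (edgeR adjusted p = 1.63e-05), and without a stated strand setting their reads cannot be told apart from those of the overlapping genes. The list had 5 higher and 2 lower genes without c30 replicate 1, and 5 and 0 without c30 replicate 2. Without knockdown replicate 2, 7 were higher, and without either knockdown library in turn 1 was lower. Dancr failed when any 1 of the 4 libraries was left out, and Rab26os without c30 replicate 1 or knockdown replicate 1.

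Mir17hg, host of the miR-17 cluster that promotes growth, was at 8.93 and 8.71 CPM in knockdown cells and 15.4 and 18.2 CPM in c30 cells (edgeR log2 fold change 0.93, SE 0.16, adjusted p = 8.41e-06). Both c30 libraries were above both knockdown libraries. A count of the host transcript is not a level of the mature microRNAs, which were not measured in these libraries. The 6 mature strands below are shown because they are what this transcript encodes. They are from RefSeq (GRCm38.p6, chr14, plus strand), with the seed, bases 2 to 8, in capitals.
mmu-miR-17-5p, chr14:115043684-115043706: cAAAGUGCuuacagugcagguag
mmu-miR-20a-5p, chr14:115044183-115044205: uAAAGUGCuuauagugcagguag
mmu-miR-18a-5p, chr14:115043867-115043889: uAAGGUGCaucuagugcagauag
mmu-miR-19a-3p, chr14:115044048-115044070: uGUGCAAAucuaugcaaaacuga
mmu-miR-19b-3p, chr14:115044358-115044380: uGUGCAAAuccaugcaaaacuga
mmu-miR-92a-3p, chr14:115044476-115044496: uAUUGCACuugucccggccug
miR-17 and miR-20a share the seed AAAGUGC, and miR-19a and miR-19b share GUGCAAA, so the 6 strands hold 4 different seeds.

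Other biosynthetic genes rose in smaller numbers. In polyamine metabolism, a list drawn up after the values were seen, 3 of 12 rose and 1 fell, or 2 and 2 without knockdown replicate 2. Odc1, the first enzyme of polyamine synthesis, was at 465 and 473 CPM in knockdown cells and 598 and 595 CPM in c30 cells (edgeR log2 fold change 0.35, SE 0.042, adjusted p = 7.37e-10). Srm, spermidine synthase, was at 106 and 111 CPM in knockdown cells and 134 and 131 CPM in c30 cells (edgeR log2 fold change 0.29, SE 0.058, adjusted p = 2.04e-04). Sat1, which starts polyamine breakdown, was at 253 and 223 CPM in knockdown cells and 195 and 188 CPM in c30 cells (edgeR log2 fold change -0.31, SE 0.052, adjusted p = 9.37e-06). Odc1 and Srm were higher and Sat1 lower in both c30 libraries. In the whole list 7 members had a fold change above 0 and 5 below, with a median of 0.05. Oaz1, which limits Odc1 protein, rose (0.19, edgeR adjusted p = 0.00473), though not without c30 replicate 1 or knockdown replicate 2. In purine and pyrimidine synthesis, also drawn up afterwards, 6 of 27 rose and 1 fell. The list also holds Upp1, uridine phosphorylase, an enzyme of uridine breakdown and salvage. Upp1 was at 39.8 and 35.7 CPM in knockdown cells and 57.8 and 56.5 CPM in c30 cells (edgeR log2 fold change 0.60, SE 0.088, adjusted p = 4.50e-07). Cad, which starts pyrimidine synthesis, was at 239.8 and 257 CPM in knockdown cells and 289 and 298 CPM in c30 cells (edgeR log2 fold change 0.24, SE 0.048, adjusted p = 2.22e-04), and Pfas of purine synthesis at 129.95 and 132 CPM in knockdown cells and 157 and 158 CPM in c30 cells (edgeR log2 fold change 0.27, SE 0.054, adjusted p = 2.71e-04). All 3 were higher with c30, without overlap. Ctps2 fell (-0.29, SE 0.075). When c30 replicate 1 was left out, 3 of the 27 rose, and without c30 replicate 2, 4 did.

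Of 77 spliceosome and hnRNP genes, another list drawn up afterwards, 10 rose and 0 fell (median 0.07), with Snrpg, a core Sm protein, at 56.4 and 47.4 CPM in knockdown cells and 71.9 and 75.05 CPM in c30 cells (edgeR log2 fold change 0.50, SE 0.075, adjusted p = 5.39e-07). Its groups were apart, but the list's count was 2 when either c30 library was left out and 4 without knockdown replicate 2, where the median was 0.04. Genes called lower numbered 1 without c30 replicate 2, 2 without knockdown replicate 1 and 1 without knockdown replicate 2. Nuclear genes of oxidative phosphorylation were higher for 9 of 89 and lower for 0 (median 0.07). Ndufa4 was at 55.5 and 51.96 CPM in knockdown cells and 66.9 and 68.4 CPM in c30 cells (edgeR log2 fold change 0.33, SE 0.073, adjusted p = 0.00103), and Cox6a1, a cytochrome oxidase subunit, at 106 and 101 CPM in knockdown cells and 122 and 128 CPM in c30 cells (edgeR log2 fold change 0.27, SE 0.058, adjusted p = 7.96e-04). Both were higher in both c30 libraries. Without c30 replicate 1 the count was 6, and it was 1 without c30 replicate 2 and 5 without knockdown replicate 2, where 1 was lower and the median was 0.04, and the length and GC correction gave 5 higher and 2 lower. Mitochondrial ribosomal proteins were higher for 4 of 78 (median 0.09), a share of 5.13%, close to the 3.30% over all genes tested. These calls did not hold when either c30 library or knockdown replicate 2 was left out. Cytosolic heat shock proteins and chaperonin subunits were higher for 3 of 27, for example Hspd1 (0.16, SE 0.037) and Cct3 (0.16, SE 0.041), and for 0 when either c30 library was left out. With a knockdown library left out, 5 or 4 were higher and 1 lower.

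All calls among hypoxia targets and glycolytic enzymes were downward: 14 of 40 tested fell and 0 rose, the median was -0.17, and 5 of the 40 had a fold change above 0. Ndrg1, a stress gene strongly induced by low oxygen, was at 125 and 121 CPM in knockdown cells and 76.9 and 86.7 CPM in c30 cells (edgeR log2 fold change -0.59, SE 0.062, adjusted p = 4.64e-12). Pdk1, which keeps pyruvate out of mitochondria, was at 91.2 and 91.4 CPM in knockdown cells and 69.5 and 68.2 CPM in c30 cells (edgeR log2 fold change -0.41, SE 0.065, adjusted p = 2.52e-06). Ldha, which makes lactate, was at 1359 and 1279 CPM in knockdown cells and 1127 and 1155 CPM in c30 cells (edgeR log2 fold change -0.21, SE 0.038, adjusted p = 3.63e-05). Every c30 library of the 3 lay below every knockdown library, by more in the regulators Ndrg1 and Pdk1 than in the abundant enzyme. The other glycolytic enzymes called were Pgk1 (-0.19, SE 0.038), Gpi1 (-0.21, SE 0.048), Pfkl (-0.18, SE 0.055) and Eno1 (-0.11, SE 0.035). The mitophagy receptor genes Bnip3 (-0.61, SE 0.16) and Bnip3l (-0.21, SE 0.060), the oxygen sensor gene Egln3 (-0.69, SE 0.22), the growth inhibitor gene Ddit4 (-0.48, SE 0.15) and the repressor gene Bhlhe40 (-0.65, SE 0.15) fell too. The glucose transporter gene Slc2a1 (-0.13, edgeR adjusted p = 0.247) and the hexokinase gene Hk2 (0.10, edgeR adjusted p = 0.410) did not pass. The count of lower genes was 5 without c30 replicate 1, 7 without c30 replicate 2, 9 without knockdown replicate 2, 9 with DESeq2 and 4 with all 10 libraries, with a median between -0.19 and -0.17 in these. Ndrg1, Pdk1 and Ldha passed when either c30 library was left out.

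Hypoxia-inducible factors bind the core letters ACGTG, and the promoters of this list were searched for them on both strands, from 250 bases before to 50 bases after the annotated start (RefSeq, GRCm38.p6). Of 36 members with a promoter in the table, 26 held the letters (72.2%), against 2880 of the 9921 genes tested that had one (29.03%). Within the list the letters stood in 19 of 25 members not called (76.0%) and in 7 of 11 called lower (63.6%). Over all called genes the shares were 28.7% for higher and 31.7% for lower. A match describes the sequence and is not a binding site. The 120 bases before the start of 3 members that fell are shown as examples of the arrangement, with matches in capitals. They were taken because a match lay within those bases, so a match in each was fixed by the choice. Where the letters run CACGTG they match on both strands.
Ldha, chr7:46845684-46845803, plus strand: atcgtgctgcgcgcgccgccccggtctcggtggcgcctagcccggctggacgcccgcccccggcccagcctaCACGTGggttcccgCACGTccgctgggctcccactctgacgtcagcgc
P4ha1, chr10:59323176-59323295, plus strand: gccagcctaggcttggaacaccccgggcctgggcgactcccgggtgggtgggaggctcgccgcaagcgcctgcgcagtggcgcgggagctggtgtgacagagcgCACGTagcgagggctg
Bnip3, chr7:138909507-138909626, minus strand: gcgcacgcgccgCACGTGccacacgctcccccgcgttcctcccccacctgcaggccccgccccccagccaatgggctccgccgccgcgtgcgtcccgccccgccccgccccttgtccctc
Ldha holds 3 matches counted over both strands, Bnip3 2 and P4ha1 1.

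Fatty acid and lipid droplet genes were lower for 12 of 43 and higher for 0 (median -0.10). Scd1, which desaturates stearate, was at 390.3 and 399 CPM in knockdown cells and 289 and 301 CPM in c30 cells (edgeR log2 fold change -0.42, SE 0.046, adjusted p = 2.85e-11). Plin4, a lipid droplet coat protein, was at 48.2 and 57.1 CPM in knockdown cells and 29.7 and 29.6 CPM in c30 cells (edgeR log2 fold change -0.83, SE 0.10, adjusted p = 2.31e-10). Cpt1a, which passes fatty acids into mitochondria, was at 44.9 and 49.3 CPM in knockdown cells and 34.6 and 36.2 CPM in c30 cells (edgeR log2 fold change -0.41, SE 0.093, adjusted p = 0.00122). The c30 libraries were lower without overlap in all 3, although these genes act in synthesis, storage and breakdown. The desaturase genes Fads1 (-0.26, SE 0.056) and Fads2 (-0.31, SE 0.054), Scd2 (-0.21, SE 0.037), the activating enzyme genes Acsl3 (-0.31, SE 0.064) and Acsl4 (-0.26, SE 0.058), Acss2 (-0.67, SE 0.18) and Acly (-0.13, SE 0.041) were also lower. Without c30 replicate 1, 6 of the 43 fell, and 4 did with all 10 libraries in the fit. Scd1, Plin4 and Cpt1a passed when either c30 library was left out. Of 17 circadian genes 3 fell and 0 rose (median -0.16): Tef (-0.34, SE 0.067), Bhlhe40 and Bhlhe41 (-0.76, SE 0.18), the latter pair also known as hypoxia-responsive. The circadian median ran from -0.27 without c30 replicate 2 to -0.11 without c30 replicate 1 or knockdown replicate 2. Bhlhe40 did not pass without c30 replicate 1 or knockdown replicate 2, nor Bhlhe41 without c30 replicate 2 or knockdown replicate 1.

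In the secretory pathway more genes were called lower than higher. Endoplasmic reticulum chaperones fell for 7 of 26 and rose for 0, with a median of -0.10, or -0.05 without knockdown replicate 1. Hspa5, the chaperone BiP, was at 1192 and 1163 CPM in knockdown cells and 1031 and 1039.7 CPM in c30 cells (edgeR log2 fold change -0.19, SE 0.038, adjusted p = 2.82e-04). Herpud1, a component of protein degradation at this membrane, was at 85.3 and 94.3 CPM in knockdown cells and 68.8 and 68.98 CPM in c30 cells (edgeR log2 fold change -0.38, SE 0.067, adjusted p = 1.86e-05). Both were lower in both c30 libraries, and Xbp1, the transcription factor of the unfolded protein response, had 62.8 and 63.7 CPM and 49.1 and 53.8 CPM (-0.30, edgeR adjusted p = 0.00837). The chaperone count was 2 with c30 replicate 1 removed, 3 with c30 replicate 2 removed and 4 without knockdown replicate 2, and Xbp1 failed without c30 replicate 1 or knockdown replicate 2. Of 34 genes of the ATF4 stress response 7 fell and 1, Mthfd2 (0.19, SE 0.059), rose. Chac1, which degrades glutathione, was at 76.6 and 75.5 CPM in knockdown cells and 56.4 and 54.7 CPM in c30 cells (edgeR log2 fold change -0.45, SE 0.072, adjusted p = 2.67e-06). Atf5 was at 64.7 and 64.3 CPM in knockdown cells and 49.3 and 42.3 CPM in c30 cells (edgeR log2 fold change -0.49, SE 0.081, adjusted p = 4.95e-06). Both were lower without overlap, and Atf4 itself did not pass (-0.08, edgeR adjusted p = 0.361). With either c30 library left out 4 of the list fell and 0 rose, and with either knockdown library left out 5 and 0.

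Coat proteins and cargo receptors between endoplasmic reticulum and Golgi, a list drawn up after the values were seen, were lower for 11 of 49 and higher for 2 (median -0.06), the latter 1 without knockdown replicate 1 and 0 with any other of the 4 libraries left out. Tmed10, a cargo receptor, was at 216 and 223 CPM in knockdown cells and 182 and 181 CPM in c30 cells (edgeR log2 fold change -0.28, SE 0.051, adjusted p = 4.19e-05). Vps35, the core of the retromer that returns cargo from endosomes, was at 563 and 527 CPM in knockdown cells and 472 and 465 CPM in c30 cells (edgeR log2 fold change -0.22, SE 0.043, adjusted p = 1.94e-04). It belongs to a second list drawn up afterwards, sorting nexins and retromer, with 7 of 32 lower and 0 higher (median -0.05, or -0.08 without knockdown replicate 2). Both genes were lower in both c30 libraries. Lysosomal genes were lower for 6 of 48 (12.5%, against 4.45% of all genes tested) and higher for 0. Of the 48, 42 had a fold change below 0 (median -0.10). Asah1, acid ceramidase, was at 489 and 486 CPM in knockdown cells and 415 and 423 CPM in c30 cells (edgeR log2 fold change -0.22, SE 0.043, adjusted p = 1.82e-04), lower in both c30 libraries. Ctsd, cathepsin D, had a log2 fold change of -0.24 (edgeR adjusted p = 0.00738), and Lamp2 had one of -0.19 (edgeR adjusted p = 0.00306), both failing without c30 replicate 2 and Ctsd also without knockdown replicate 1. Without c30 replicate 1 and without c30 replicate 2 the lower genes numbered 5 and 2 among coats, 3 and 3 among sorting nexins, and 3 and 1 among lysosomal genes.

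Redox and detoxification enzymes did not move one way, with 5 of 55 higher (9.09%) and 6 lower (10.9%), against 3.30% and 4.45% of all genes. Aldh3a1, an aldehyde dehydrogenase of epithelia, was at 69.4 and 65.5 CPM in knockdown cells and 32.5 and 35.3 CPM in c30 cells (edgeR log2 fold change -0.99, SE 0.087, adjusted p = 2.06e-15). Ephx1, microsomal epoxide hydrolase, was at 15.8 and 12.9 CPM in knockdown cells and 8.75 and 9.15 CPM in c30 cells (edgeR log2 fold change -0.68, SE 0.16, adjusted p = 0.00253). Glrx, glutaredoxin, which reduces glutathionylated proteins, was at 8.79 and 7.73 CPM in knockdown cells and 17.5 and 12.3 CPM in c30 cells (edgeR log2 fold change 0.85, SE 0.17, adjusted p = 1.61e-04). The 2 detoxifying enzymes were lower and the thiol reductase higher, each without overlap. Txnrd1 (0.20, SE 0.047), Txn1 (0.18, SE 0.043), Sod1 (0.16, SE 0.050) and the ferritin gene Fth1 (0.15, SE 0.042) rose, and all 4 failed when either c30 library was left out. Aldh3a1 passed in every alternative, while Glrx and Ephx1 did not without c30 replicate 1, nor Ephx1 without knockdown replicate 1. The list held 0 higher and 2 lower genes without c30 replicate 1 and 2 and 2 without c30 replicate 2, and 3 and 4 without knockdown replicate 2.

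Cytoskeleton genes moved in both directions. Of 45 actin, myosin and contractile genes 5 rose and 4 fell. Actb, cytoplasmic beta-actin, was at 2503 and 2554 CPM in knockdown cells and 2817 and 2879 CPM in c30 cells (edgeR log2 fold change 0.17, SE 0.034, adjusted p = 2.15e-04), a gene often taken as a constant reference. Palld, the actin bundler palladin, was at 4.29 and 4.43 CPM in knockdown cells and 7.87 and 6.69 CPM in c30 cells (edgeR log2 fold change 0.74, SE 0.22, adjusted p = 0.0224). Pdlim7, a LIM adaptor, rose (0.41, SE 0.10), and gelsolin, given above, was the largest fall of the list. With c30 replicate 1 left out the list held 2 higher and 1 lower genes, and without c30 replicate 2, 1 and 2. Palld did not pass when any 1 of the 4 libraries was left out, and Actb did not without c30 replicate 2. Among 20 tubulins Tuba1a fell (-0.28, SE 0.047), as did Tubb2a (-0.66, SE 0.18), the latter not without c30 replicate 1 or knockdown replicate 1. Tubulin and actin genes have close copies, so reads could be split.

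Among cell cycle genes 5.88% of S phase genes rose, and 1.85% of mitotic genes rose and 9.26% fell. Over all genes tested 3.30% rose and 4.45% fell. The shares of S phase rises and mitotic falls were above these, on 3 and 5 genes. Of 51 replication and S phase genes 3 rose and 0 fell, and Rrm2, a ribonucleotide reductase subunit, was at 285 and 287 CPM in knockdown cells and 335 and 338 CPM in c30 cells (edgeR log2 fold change 0.23, SE 0.046, adjusted p = 1.94e-04). Of 54 mitotic genes 1 rose and 5 fell, and Mki67, the proliferation antigen, was at 1121 and 1188 CPM in knockdown cells and 1001 and 1005 CPM in c30 cells (edgeR log2 fold change -0.20, SE 0.039, adjusted p = 1.41e-04). Rrm2 was higher and Mki67 lower in both c30 libraries. The mitotic list held 1 higher and 1 lower gene without c30 replicate 1 and 0 and 2 without c30 replicate 2, and the S phase list 1 higher gene in either case. Without knockdown replicate 2 they held 0 and 3, and 1 and 1. Of 29 genes in a list of p53 targets, which also holds Trp53, 3.45% rose and 6.90% fell. The 1 gene that rose was Trp53 itself (0.16, edgeR adjusted p = 0.00762). Pmaip1, the apoptosis gene NOXA (-0.94, edgeR adjusted p = 0.00201), and Ccng2 (-0.52, edgeR adjusted p = 5.71e-04) fell. Cdkn1a (-0.12, edgeR adjusted p = 0.553) and Mdm2 (0.09, edgeR adjusted p = 0.611) did not pass. Trp53 failed when either c30 library was left out, Ccng2 without c30 replicate 1 and Pmaip1 without c30 replicate 2.

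Other lists are given by their counts, where the shares over all genes tested were 3.30% higher and 4.45% lower. In the Wnt list 0 of 25 rose and 1 fell, the transcription factor gene Tcf7 (-0.44, SE 0.11), which failed without c30 replicate 1 or knockdown replicate 1. In the Notch list 0 of 15 rose and Dtx3l fell (-0.30, SE 0.064), with 2 lower without knockdown replicate 1. YAP effectors and targets had 0 of 24 higher and 2 lower, Amot (-0.27, SE 0.076) and Cavin2 (-0.21, SE 0.070), and 0 of these when either c30 library or knockdown replicate 2 was left out. Guidance cues and their receptors were higher for 1 of 41 and lower for 5, among them Sema5a (-0.44, SE 0.063) and the laminin-related Ntn1 (-0.23, SE 0.051), which failed without c30 replicate 2. They had 2 lower without c30 replicate 1 and 3 without knockdown replicate 2, and 0 higher without c30 replicate 2 or knockdown replicate 1. Solute carriers were higher for 7 of 179 (3.91%) and lower for 4 (2.23%), close to or under the shares over all genes. Amino acid transporters were lower for 2 of 22 (9.09%), including the arginine transporter gene Slc7a2 (-0.44, SE 0.085). The solute carriers held 2 higher and 2 lower genes without c30 replicate 1 and 1 and 3 without c30 replicate 2, and 3 and 3 and 4 and 4 without knockdown replicates 1 and 2. Amino acid transporters had 1 lower without c30 replicate 1 or knockdown replicate 1. Proteasome subunits were higher for 3 of 37 and lower for 1, the immunoproteasome gene Psmb8 (-0.23, SE 0.067), which failed without c30 replicate 1 or knockdown replicate 2. With either c30 library or knockdown replicate 2 left out 1 proteasome gene at most was higher. Of 17 S100 proteins and annexins 2 rose, Anxa9 (0.51, SE 0.14) and S100a6 (0.17, SE 0.046), and 4 fell, Anxa1 (-0.17, SE 0.039), Anxa2 (-0.16, SE 0.035), Anxa6 (-0.42, SE 0.10) and Anxa8 (-0.34, SE 0.10), and both shares were above those over all genes. With a c30 library left out 2 and 1 were lower and 1 and 0 higher, and with a knockdown library left out 3 and 2 were lower and 1 higher. Of 15 mitochondrially encoded genes mt-Atp6 (0.35, SE 0.11) rose and mt-Cytb (-0.11, SE 0.038) fell, named here after their values were seen. The former failed without c30 replicate 1 and the latter when either c30 library was left out, and the list held 2 higher and 0 lower without knockdown replicate 1 and 0 and 1 without knockdown replicate 2. Among 22 histone genes the 1 call was H1f0, with 2 higher as well without knockdown replicate 1. A gene that missed the threshold is not shown to be unchanged by this.

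The libraries labelled ect share the knockdown libraries as their control. Their Sdc1 level, 22.7 and 25.2 CPM, was not above the knockdown (ect minus knockdown -0.17 on the log2 scale, edgeR adjusted p = 0.325), so the counts show no sign of an introduced Sdc1 transcript and the group is called by its label only. Set directly against each other in the same fit, c30 and ect differed in 45 of the 15031 genes (0.299%), with 20 higher and 25 lower in c30. For Sdc1 itself c30 minus ect was 2.03 on the log2 scale. Of 221 genes taken by the rule for named genes, 15 were called between c30 and ect. Apart from Sdc1 these genes were chosen by their c30 against knockdown result. The same 2 c30 libraries enter both contrasts, so a deviation of those libraries favours a call in each, and the 15 are not independent evidence. Egr1 was at 20.2 and 22.9 CPM with ect against 10.1 and 10.1 CPM with c30 (c30 minus ect -1.10, SE 0.14, edgeR adjusted p = 9.23e-08), and C4b was at 23.5 and 23.4 CPM against 14.3 and 16.2 CPM (-0.62, SE 0.12, edgeR adjusted p = 0.00303). C1s1 had 7.83 and 6.65 CPM with ect and 4.02 and 3.52 CPM with c30 (-0.93, SE 0.23, edgeR adjusted p = 0.0422). All 3 were lower in both c30 libraries than in any ect or knockdown library. Nfkbiz (-0.42), Serpina3f (-0.58), Cd74 (-0.79), Iigp1 (-0.21), Cavin2 (-0.29) and Malat1 (-0.20) were below ect as well. Above ect were Actb (0.16), Fubp1 (0.21), Tuba1a (0.21) and mt-Cytb (0.19), and Rps27a was below it (-1.01), with the uncertainty of its copies. The number called between c30 and ect was 21 without c30 replicate 1, 18 without c30 replicate 2, 83 without knockdown replicate 1 and 97 without knockdown replicate 2. Of the named genes 7, 5, 21 and 24 were called in these fits, 8 without ect replicate 2, and 4 with all 10 libraries.

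The values with ect are set beside those with c30 for members described above. Id1 was at 57.6 and 64.2 CPM with ect and Id3 at 61.8 and 67.2 CPM, and their log2 fold changes against the knockdown were 0.69 and 0.68 with c30 and 0.78 and 0.87 with ect. Klf4 stood at -0.53 and -0.43, Ndrg1 at -0.59 and -0.57, Odc1 at 0.35 and 0.36, and H1f0 at -0.46 and -0.50. Tnc was at 10.9 and 12.2 CPM with ect, between the knockdown and c30, and its c30 minus ect difference did not pass (0.58, SE 0.16, edgeR adjusted p = 0.113). Because both comparisons use the same 2 knockdown libraries, a deviation of those libraries enters both, and likeness between them is not independent evidence. A difference from ect that missed the threshold does not show that the groups labelled c30 and ect are alike.

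The share of genes called differed from chromosome to chromosome, a difference for which no test was made. Genes with a mean of at least 5 CPM were assigned to chromosomes by Ensembl identifier through the GRCm38 annotation, 10571 in all, of which 4.29% were higher and 5.89% lower. On chromosome 15, 56 of 444 genes were lower (12.6%) and 7 higher (1.58%). On chromosome 18, 32 of 271 were lower (11.8%) and 4 higher (1.48%), and 77.1% of all genes there had a fold change below 0. The median log2 fold change on chromosome 18 was -0.09, against 0.00 over all of these genes, and -0.10 when either c30 library was left out. Chromosome 7 (50 lower and 13 higher of 746) and the X chromosome (30 and 8 of 340) leaned the same way. Chromosome 11 had 65 higher and 43 lower of 889, but 16 and 25 without c30 replicate 2 and 46 and 52 without knockdown replicate 1. With ect the median on chromosome 18 was -0.06 against the same knockdown libraries.

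**Figure D5:**
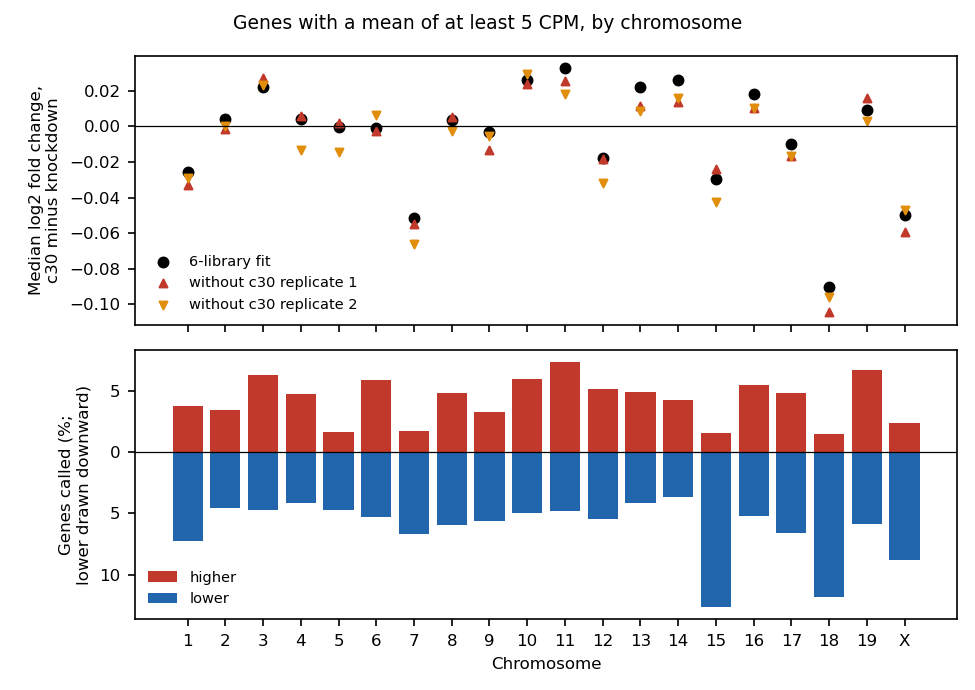
Median log2 fold change of c30 against knockdown per chromosome (top; black for the 6-library fit, triangles for fits without 1 c30 library) and percentage of genes called higher (upward, red) or lower (downward, blue) per chromosome (bottom), for 10571 genes with a mean of at least 5 CPM. Chromosome 18 lies lowest in each fit drawn, with a median of -0.09 in the 6-library fit, and chromosomes 15 and 18 have the tallest blue bars, at 12.6% and 11.8%.

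Exon length differed between genes called higher and lower. In the shortest 20% of protein-coding genes by exon length 116 rose and 95 fell (median 0.02), and in the longest 20% 62 rose and 174 fell (median -0.02). After each library was corrected for transcript length and GC, a step chosen after the data were seen and possible for 94.3% of the genes tested, 566 were called higher and 766 lower, 1332 in all. Ribosomal proteins then had 26 higher and a median of 0.09, ribosome biogenesis 21 higher and 0.16, and hypoxia targets 15 lower and -0.17.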

How the data were processed

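RNA-seq of mRNA libraries was run on 10 samples, 2 per group, with paired Illumina reads, per the labels' protocols. The authors deposited 1 table of raw read counts per gene (60676 rows, not normalized), and the submitters' processing notes name Trimmomatic, HISAT2 2.0.5, HTSeq, featureCounts, DESeq2 and GRCm39, with no roles. The sources used here do not give the strand setting. Symbols were taken by Ensembl identifier from an annotation of GRCm38 and matched 51884 rows.

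The 6 MC38 libraries were fitted together in R 4.3.3 with edgeR 4.0.16 (filterByExpr, TMM, robust quasi-likelihood F test, 2-sided), and p-values were adjusted by Benjamini-Hochberg over the 15031 genes tested and called under 0.05. CPM values printed are TMM-scaled, while marker sums are scaled by total counts alone. Counts were simulated for the c30 comparison, with 200 genes of 15031 changed, all drawn from genes with a mean of at least 5 CPM. Of those changed 24% were recovered at 1.2-fold, 84% at 1.5-fold, 96% at 2-fold and 100% at 3-fold, with 12 false calls.

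Genes named were Sdc1, the 25 largest rises and falls at a mean of at least 5 CPM, the 15 at at least 100 CPM, up to 4 called members per list by adjusted p, and further members that complete a family. Some genes the rule takes are not reported here. Members and lists (52, and 5 added) were chosen with earlier results of these data known. Alternatives were RLE size factors, other filters on low counts, DESeq2 1.42.0, limma-voom 3.58.1, a replicate block, other sets of libraries, each library left out, and a length and GC correction (mgcv 1.9.3) chosen after seeing the data. The floors cover counting error only, while the standard errors include the spread between libraries that the fit estimated.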

Additional observations from a re-analysis of the deposited data

How the results depend on the processing

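The count of 1165 called genes (496 higher, 669 lower) fell to 513 (194 and 319) with DESeq2 and to 254 (64 and 190) with all 10 libraries in 1 fit. With 1 library left out it ran from 464 to 1245, the higher genes from 164 to 523 and the lower genes from 285 to 731. The no-filter, 5 CPM, RLE, limma-voom, 4-library and length and GC fits gave 956 to 1332. Between c30 and ect, 45 genes became 19 with DESeq2, 8 with all 10 libraries and 79 with the length and GC correction, and 18 to 97 with 1 library left out. The 15 named genes called between c30 and ect became 8, 4 and 23, and 5 to 24. Same-numbered libraries of the groups did not deviate together (correlations of 0.06 for knockdown and c30, -0.01 for knockdown and ect and 0.02 for c30 and ect over 10727 genes), so the numbers were not taken as pairs. The fit with a replicate block called 1189 genes (506 and 683), 55 between c30 and ect, and 16 of the named ones. Of 220 named genes other than Sdc1, 78 lost the call without c30 replicate 1, 73 without c30 replicate 2, 124 with all 10 libraries and 42 of 210 with DESeq2. None changed direction in these settings. Sdc1 kept its call in each, at 1.71 to 2.01. With 1 library in a group, its spread was assumed to be that of the other groups. In the simulation 24% of 1.2-fold changes were recovered. It changed 200 genes, fewer than the 1165 called, so its rates need not hold for these data. Small changes that missed the threshold may not have been detectable. The causes of these shifts were not tested.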
